A study of Rattus norvegicus with 4 samples.

Results

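Pik3ca, Akt1, Akt2, Tsc1, Tsc2, Mtor, Rptor and Rictor, the 8 genes described here, encode a lipid kinase, its downstream protein kinases and the complexes that these kinases act through. They were chosen by gene name, each name matched 1 row of the deposited tables, and they are 8 of 33778 genes in those tables. All 8 reached the filter of a mean of 1 FPKM (fragments scaled to gene length and library size) that 12334 genes passed. The RNA came from H9C2, a line of rat embryonic heart cells, in 2 groups of 2 libraries. The PAGln libraries came from cells given PAGln (phenylacetylglutamine, made in the body from phenylacetate of gut bacteria and glutamine) at 100 µM for 48 h. The control libraries came from H9C2 cells without PAGln, and all cells were grown in the same serum-containing medium with antibiotics. The labels speak of 2 repeats in one place and of triplicate in another, and none says that the libraries were separate cultures, so p-values measure only the spread between libraries, which may be technical.

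PI3K, whose alpha catalytic subunit is the product of Pik3ca, is switched on by growth factor receptors and makes a membrane lipid that recruits the AKT kinases. AKT phosphorylates and inhibits the TSC complex of TSC1 and TSC2, which otherwise keeps the small GTPase RHEB inactive, and active RHEB stimulates the kinase mTOR. mTOR works in complex 1 (mTORC1), built with RPTOR, which promotes protein synthesis and restrains autophagy, and in complex 2 (mTORC2), built with RICTOR, which phosphorylates AKT. In heart muscle the pathway is known for its part in cell growth and hypertrophy. Its activity is set largely by phosphorylation, which RNA levels do not show.

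The 4 libraries held 13507110 and 13585802 recovered reads with PAGln and 14934592 and 14984712 in control. H9C2 is labelled as cardiac myocytes, but of 11 cardiac markers only 4 reached the filter (Tnnt2, Pln, Gata4 and Nkx2-5). Smooth muscle Acta2, at a mean of 3843 FPKM, and Col1a1, at 2977 FPKM, were far higher. Of the other smooth muscle and fibroblast markers, Tagln averaged 994 FPKM, Thy1 348, Pdgfrb 92.1 and Cnn1 88.5. Myh11 averaged only 2.58 FPKM and Pdgfra 0.016, and Dcn was 0 in all 4 libraries. Of 7 skeletal myoblast markers 5 reached the filter: Itga7 averaged 188 FPKM, Cdh15 91.2, Myod1 40.5, Des 4.76 and Myog 1.33. Myf5 and Pax7 were 0 in all 4 libraries. The summed level of 7 skeletal myoblast markers was 358 FPKM in PAGln 1 and 292 in PAGln 2, against 296 in control 1 and 359 in control 2. The libraries did not pair up by treatment. Control 1 and PAGln 2 lay together above or below both control 2 and PAGln 1 for 56.9% of the tested genes, while the labelled groups separated for 23.1%. Groups are used as labelled. Whether 2 libraries carry each other's label was not tested, and every difference between PAGln and control given here rests on the labels. In bulk RNA, fewer cells that express a gene and less RNA per cell cannot be told apart.

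The promoter windows of Mtor and Rictor are shown because these transcripts, which encode partners in mTORC2, were high and low in the same libraries. That pattern is not particular to the pair, since 5 of the 8 genes showed it. So did 28.1% of all tested genes and 67.9% of those over 5000 bases. The windows are RefSeq sequences of build GRCr8, from 250 bases before to 50 bases after the annotated start, with each CG in capitals. RefSeq windows were found for 7 of the 8 genes. The Rictor window lies at chr2:57539029-57539328 on the + strand and the Mtor window at chr5:164167735-164168034 on the + strand.
Rictor: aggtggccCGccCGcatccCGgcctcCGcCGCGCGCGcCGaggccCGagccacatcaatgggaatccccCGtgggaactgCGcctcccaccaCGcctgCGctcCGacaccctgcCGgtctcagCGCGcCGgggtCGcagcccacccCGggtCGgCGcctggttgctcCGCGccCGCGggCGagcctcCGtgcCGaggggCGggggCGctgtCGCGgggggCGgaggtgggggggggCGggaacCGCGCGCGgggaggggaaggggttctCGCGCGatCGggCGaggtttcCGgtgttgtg
Mtor: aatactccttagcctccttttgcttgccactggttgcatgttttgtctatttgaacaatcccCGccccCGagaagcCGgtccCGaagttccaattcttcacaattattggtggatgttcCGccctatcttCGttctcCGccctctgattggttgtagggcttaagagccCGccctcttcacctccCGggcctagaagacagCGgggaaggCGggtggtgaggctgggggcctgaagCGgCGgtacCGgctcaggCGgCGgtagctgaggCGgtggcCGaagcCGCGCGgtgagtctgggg
The Rictor window holds 46 CG pairs with 78.3% G and C, and the Mtor window holds 21 with 60.0%. The median over 33469 windows of the same length is 7 CG pairs.

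None of the 8 transcripts passed the test between PAGln and control cells. limma on log2(FPKM + 1) gave all 8 genes a Benjamini-Hochberg adjusted p of 1.00 over all 12334 genes, and the smallest unadjusted p was 0.236, for Akt1. Over all tested genes 0 passed (0.0%), and 262 (2.12%) had an unadjusted p under 0.05, none of them among the 8. The point estimates were higher with PAGln for 5 genes and lower for 3, with a median log2 fold change of 0.051, against 0.0021 over all tested genes. Tested genes over 5000 bases, a class that holds 5 of the 8, had a median of 0.045 and were higher with PAGln in 67.1% of cases, against 62.5% of the 8. Both PAGln libraries lay outside the range of both controls for 1 of the 8, Akt1, while 23.1% of all tested genes showed such separation in either direction. Throughout, a log2 fold change is the mean log2(FPKM + 1) with PAGln less that in control, a scale on which changes of weakly expressed genes come out too small.

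**Figure D1:**
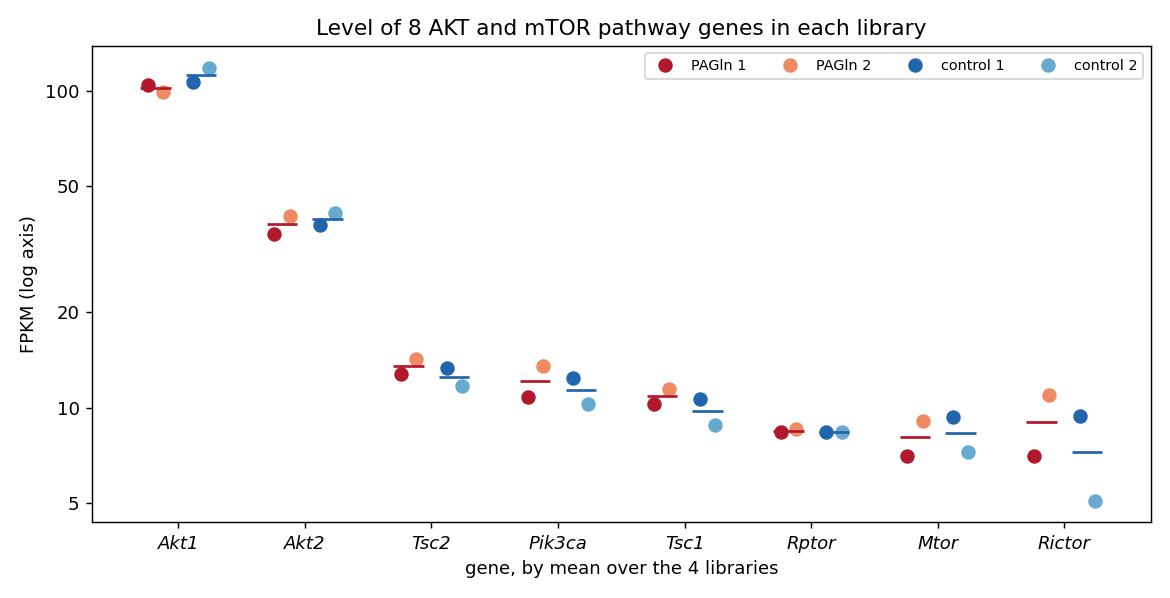
Level of each of the 8 genes in FPKM (log axis) in PAGln 1, PAGln 2, control 1 and control 2, with a line at each group's mean over 2 libraries. Akt1 near 100 FPKM and Akt2 near 40 stand above the other 6 genes, and the points of Rictor spread widely while those of Rptor nearly coincide.

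Akt1 was the most abundant of the 8 transcripts. Akt1 encodes the widely expressed AKT kinase linked to cell growth and survival. It is annotated on chromosome 6 from 137218376 to 137236258 on the minus strand (ENSRNOG00000028629, build not given in the sources used here). It had 104 and 99.3 FPKM in the PAGln libraries, against 107 and 118 FPKM in the controls. Both PAGln values were below both control values, by a gap of 2.53 FPKM between the nearest libraries, and 11.6% of all tested genes had both PAGln libraries below both controls. The means were 102 ± 3.34 FPKM with PAGln and 112 ± 8.33 FPKM in control (SD, n = 2 each). The log2 fold change of Akt1 came to -0.14 (SE 0.11, 95% confidence interval -0.41 to 0.13, limma adjusted p = 1.00). The interval holds everything from a 0.751-fold to a 1.09-fold level. Without control 2, the highest library, the log2 fold change was -0.068.

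Akt2, the AKT form best known for its part in insulin-stimulated glucose uptake, lies on chromosome 1 from 84411726 to 84450162 (ENSRNOG00000018677). Akt2 had 35.4 and 40.4 FPKM with PAGln, against 37.6 and 41.3 FPKM in control. The groups overlapped, and replicate 2 was the higher library in each. Akt2 averaged 37.9 ± 3.52 FPKM with PAGln and 39.4 ± 2.57 FPKM in control, a log2 fold change of -0.058 (SE 0.12, 95% confidence interval -0.36 to 0.24, limma adjusted p = 1.00). The sign turned without PAGln 1, at 0.034, and without control 2, at 0.0065.

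Pik3ca encodes the catalytic subunit p110 alpha and is annotated on chromosome 2 from 118831350 to 118861454 (ENSRNOG00000056371). Pik3ca had 10.8 and 13.5 FPKM with PAGln, against 12.4 and 10.3 FPKM in control. PAGln 2 was the highest library and control 2 the lowest, with the other two between, so the groups overlapped. The means were 12.2 ± 1.94 FPKM with PAGln and 11.3 ± 1.505 FPKM in control (SD, n = 2 each), a log2 fold change of 0.090 (SE 0.17, 95% confidence interval -0.33 to 0.51, limma adjusted p = 1.00). The sign turned without PAGln 2, at -0.061, and without control 2, at -0.035. Of the class I catalytic subunits, Pik3ca made up 41.0% and 48.1% of the summed FPKM with PAGln and 45.8% and 41.2% in control. Pik3cd, known mainly from leukocytes, made up 42.8% and 36.6% with PAGln and 38.5% and 44.2% in control, and Pik3cg was listed at 0 in all 4 libraries. The leukocyte marker Ptprc had 0 and 1 reads with PAGln and 1 and 1 in control. Of the same marker list, Cd68 had 9 and 10 reads with PAGln and 12 and 14 in control, and Adgre1 had 0 in all 4 libraries.

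The TSC complex genes both had slightly higher means with PAGln, within the spread of the libraries. Tsc1, which stabilizes the complex, lies on chromosome 3 from 7237192 to 7265145 (ENSRNOG00000011470). Tsc1 had 10.2 and 11.4 FPKM with PAGln, against 10.7 and 8.81 FPKM in control. Only control 2 stood below the other three libraries, and the groups overlapped. Tsc1 averaged 10.8 ± 0.855 FPKM with PAGln and 9.73 ± 1.30 FPKM in control, a log2 fold change of 0.14 (SE 0.15, 95% confidence interval -0.23 to 0.52, limma adjusted p = 1.00). Without control 2 it was 0.021.

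Tsc2, which carries the activity that turns RHEB off, lies on chromosome 10 from 13961947 to 13996584 on the minus strand (ENSRNOG00000011375). Tsc2 had 12.8 and 14.2 FPKM with PAGln, against 13.3 and 11.7 FPKM in control. PAGln 2 was the highest and control 2 the lowest, as for Tsc1. Tsc2 averaged 13.5 ± 1.01 FPKM with PAGln and 12.5 ± 1.17 FPKM in control, a log2 fold change of 0.10 (SE 0.13, 95% confidence interval -0.23 to 0.43, limma adjusted p = 1.00). Without control 2 it was 0.015.

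Mtor, the gene of the kinase shared by both complexes, lies on chromosome 5 from 165263800 to 165373967 (ENSRNOG00000009615) and has the longest gene length of the 8, at 8680 bases. Mtor had 7.05 and 9.09 FPKM with PAGln, against 9.36 and 7.25 FPKM in control. Each group held 1 high and 1 low library, and the ranges nearly coincided. The means were 8.07 ± 1.44 FPKM with PAGln and 8.30 ± 1.49 FPKM in control (SD, n = 2 each), a log2 fold change of -0.036 (SE 0.19, 95% confidence interval -0.52 to 0.44, limma adjusted p = 1.00). The sign turned without PAGln 1, at 0.13, and without control 1, at 0.13.

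Rptor, which brings substrates to mTORC1, had nearly the same FPKM in all 4 libraries. It lies on chromosome 10 from 108750620 to 109058691 (ENSRNOG00000003821). Rptor had 8.38 and 8.53 FPKM with PAGln, against 8.36 and 8.38 FPKM in control. The highest library was 1.02 times the lowest, while the 761 to 847 reads behind each value give a counting error of 3.44% to 3.62%. Its log2 fold change came to 0.013 (SE 0.12, 95% confidence interval -0.29 to 0.32, limma adjusted p = 1.00). That SE borrows from genes of like level, since the spread of Rptor itself was far smaller, at ± 0.102 FPKM with PAGln and ± 0.0159 FPKM in control.

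Rictor, which defines mTORC2, varied most between libraries. It lies on chromosome 2 from 56052643 to 56101803 (ENSRNOG00000011341). Rictor had 7.01 and 10.96 FPKM with PAGln, against 9.42 and 5.08 FPKM in control. The control libraries were farther apart than the group means, and the groups overlapped. The highest library, PAGln 2, was 2.16 times the lowest, control 2, on 822 and 421 reads. Counting error was 3.49% and 4.87% in those libraries, well under that difference. Rictor averaged 8.99 ± 2.79 FPKM with PAGln and 7.25 ± 3.06 FPKM in control, a log2 fold change of 0.30 (SE 0.32, 95% confidence interval -0.53 to 1.13, limma adjusted p = 1.00). The interval reaches from a 0.693-fold to a 2.18-fold level, the widest of the 8. Without control 2 the log2 fold change was -0.089, and without PAGln 2 it was 0.0098.

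**Figure D2:**
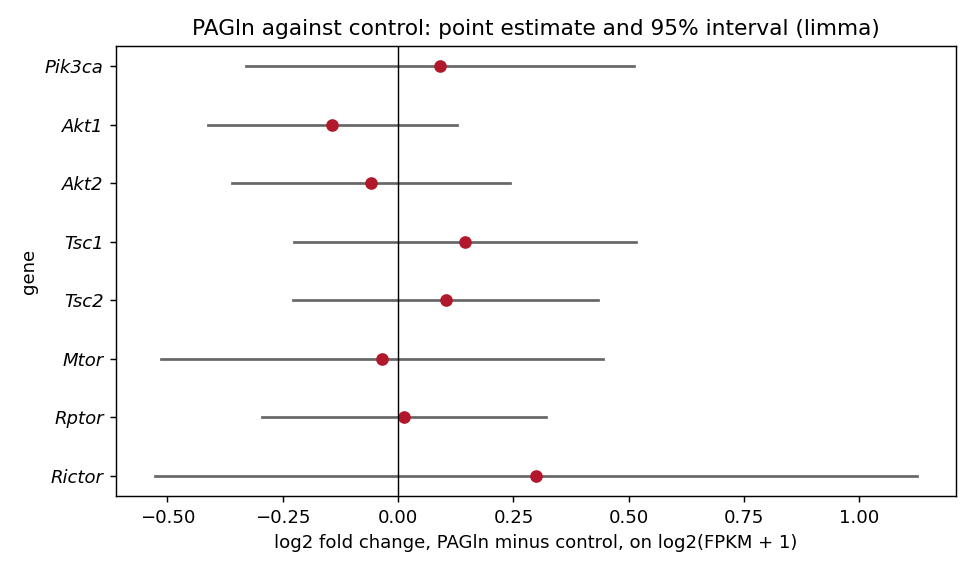
log2 fold change of each of the 8 genes (log2(FPKM + 1), PAGln minus control), with its 95% confidence interval from limma (2 libraries per group). Every interval holds 0, and that of Rictor, from -0.53 to 1.13, is the widest.

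In order of mean level over the 4 libraries, the genes ran Akt1 (107 FPKM), Akt2 (38.7), Tsc2 (13.0), Pik3ca (11.7), Tsc1 (10.3), Rptor (8.41), Mtor (8.19) and Rictor (8.12). Akt1 was above Akt2 in 4 of 4 libraries, by 2.46 to 2.94 times, and Akt2 was above Tsc2 in 4 of 4, by 2.77 to 3.53 times. Tsc2 was above Pik3ca and Pik3ca above Tsc1 in 4 of 4 libraries each, but the ranges of these neighbours overlapped. Rptor and Mtor, and likewise Mtor and Rictor, each led in 2 of 4 libraries and did not differ beyond their spread. By mean level Akt1 stood at the 94.2 percentile of the tested genes and Akt2 at the 81.5, while the other 6 lay between 38.4 and 52.0.

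Partner transcripts were set against each other within each library, since FPKM is per length. Rictor over Rptor was 0.837 and 1.29 with PAGln, against 1.13 and 0.607 in control, so neither complex's defining subunit was the higher one throughout. The mean log2 ratio was 0.053 ± 0.44 with PAGln and -0.27 ± 0.63 in control, and its difference of 0.33 turned to -0.12 without control 2. Akt2 over Akt1 was 0.340 and 0.406 with PAGln, against 0.353 and 0.349 in control. Tsc2 over Tsc1 was 1.25 and 1.24 with PAGln, against 1.25 and 1.33 in control, a steady ratio. Two-sided exact permutation tests gave p = 0.667, 1.00 and 0.333 for the 3 ratios in that order, and each was 1.00 after Benjamini-Hochberg adjustment over the 3. With 2 libraries against 2 the smallest p such a test can give is 0.333.

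**Figure D3:**
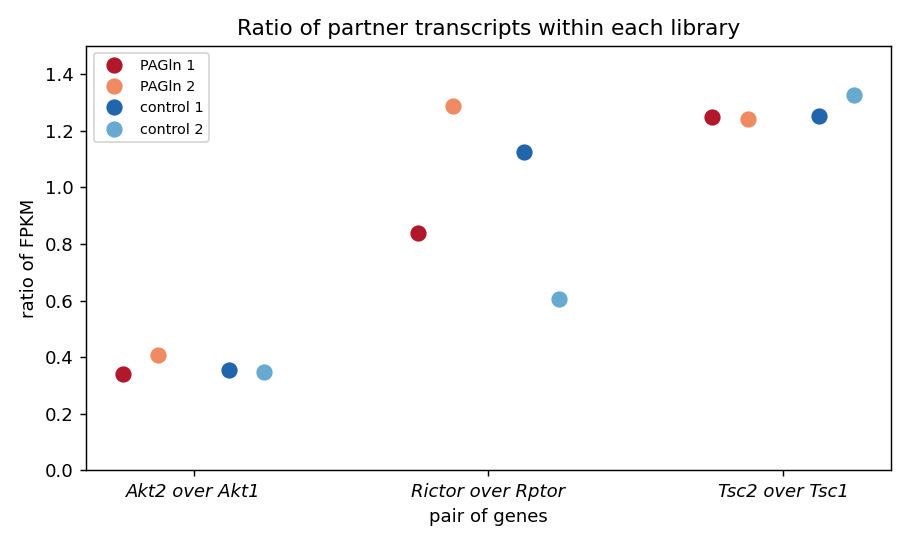
Ratio of FPKM within each library for Akt2 over Akt1, Rictor over Rptor and Tsc2 over Tsc1, in PAGln 1, PAGln 2, control 1 and control 2. Rictor over Rptor spreads from 0.607 to 1.29, while Tsc2 over Tsc1 stays between 1.24 and 1.33.

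Differences between libraries of a group were as large as those between groups for most of the 8. Pik3ca, Tsc1, Tsc2, Mtor and Rictor, 5 of the 8, were higher in both control 1 and PAGln 2 than in both control 2 and PAGln 1. Among all tested genes 28.1% showed that pattern, and 28.8% its reverse. The pattern went with gene length: 67.9% of tested genes over 5000 bases showed it, 31.7% of those from 2000 to 5000 bases and 15.3% of those under 2000 bases. Of the 5 genes among the 8 that are over 5000 bases long, 4 showed it, and Rptor, at 6699 bases, did not. After a straight-line correction of each library for gene length, chosen after seeing the data, the pattern was still present in 5 of the 8. The range over the libraries on the log2 scale was then smaller for these 5, such as 0.90 for Rictor, against 0.98 before, and 0.29 for Mtor, against 0.36. It was larger for the other three: 0.089 for Rptor, against 0.025 before, 0.27 for Akt1, against 0.25, and 0.218 for Akt2, against 0.215. The summed skeletal myoblast markers, given above, were lower in PAGln 2 and control 1. Itga7 was the largest part, at 209 and 168 FPKM with PAGln, against 173 and 202 in control. Cdh15, Myod1 and Des shared that order, but Myog did not, at 1.02 and 1.47 FPKM with PAGln, against 1.02 and 1.83 in control. The sum of the 11 cardiac markers was also lower in PAGln 2 and control 1. It was 209 FPKM in PAGln 1 and 164 in PAGln 2, against 145 in control 1 and 195 in control 2. Most of that sum was Tnnt2, at 185 and 146 FPKM with PAGln, against 127 and 171 in control. Pln and Nkx2-5 were also lower in PAGln 2 and control 1, but Gata4 was highest in PAGln 2, at 5.00 FPKM. The 4 smooth muscle markers summed to 5294 FPKM in PAGln 1 and 4031 in PAGln 2, against 5179 in control 1 and 5209 in control 2. That sum was mostly Acta2, which was lower in PAGln 2 alone. Tagln, Cnn1 and Myh11 were lower in both PAGln 2 and control 1, with Tagln at 1207 and 796 FPKM with PAGln, against 939 and 1036 in control. Of the fibroblast markers, Thy1 was lower in PAGln 2 and control 1, at 370 and 300 FPKM with PAGln, against 337 and 386 in control. Col1a1 and Pdgfrb did not share that order. The part of these markers in the differences was not tested.

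**Figure D4:**
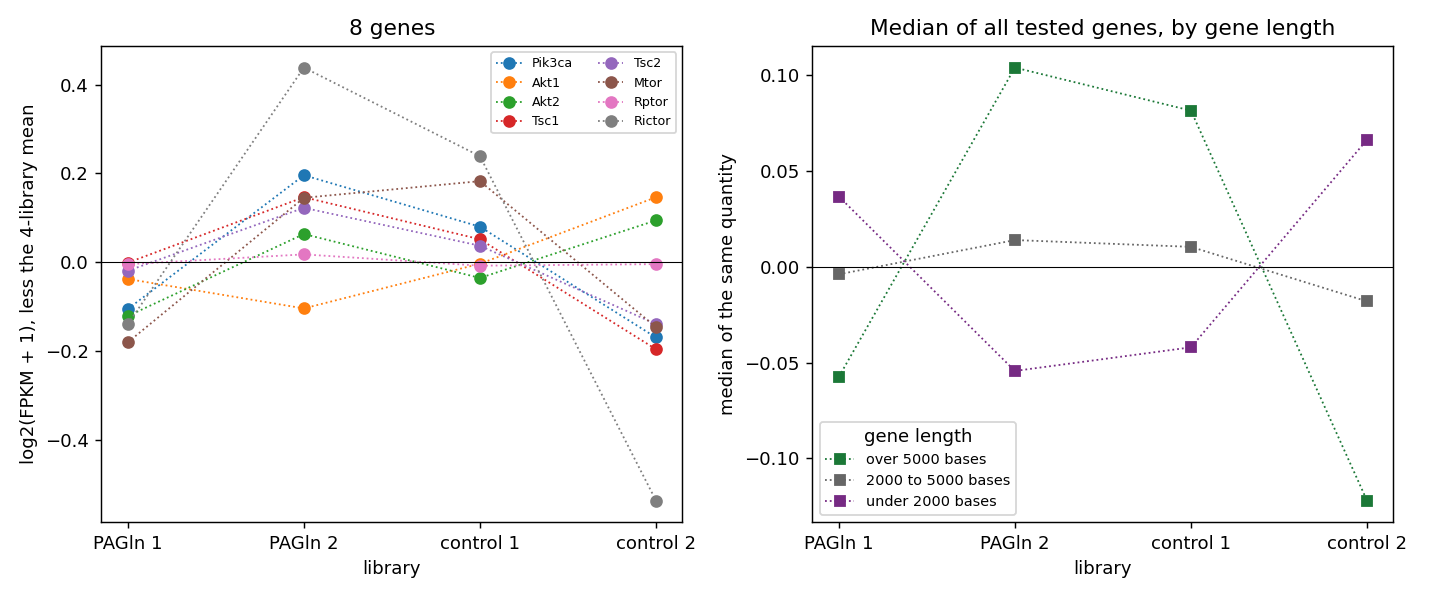
Left, log2(FPKM + 1) of each of the 8 genes less its mean over the 4 libraries; right, the median of the same quantity over all tested genes of 3 length classes. Dotted lines only join points of 1 gene or class. Rictor reaches 0.44 in PAGln 2 and -0.54 in control 2, and genes over 5000 bases share that shape at a smaller scale, from -0.12 to 0.10.

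For each of the 8, the pathway gene with the most similar profile was found by Euclidean distance between 4-library profiles of log2(FPKM + 1), each less its own mean, over 121 candidates. Mtor lay nearest to Foxo3 (distance 0.022, where the median candidate was at 0.32) and Pik3ca to Mios (0.029, median 0.30). Tsc1 and Tsc2 both lay nearest to Prkag1 (0.025 and 0.043), Akt2 to Cdkn1b (0.068) and Akt1 to Eif4b (0.097). Rptor lay nearest to Mlst8 (0.022), at about the distance of 0.020 that a perfectly flat profile would have. Rictor lay nearest to Prkaa2 (0.20, median 0.71). These 4 points share depth and library differences, and the distances are a description only.

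No gene of the wider pathway passed the test. Of 143 genes in 11 lists by role, 140 matched a row, 122 passed the filter, and 0 passed the test in either direction, also 0 at an unadjusted p under 0.05. Of the 114 that are not among the 8, 60 had higher and 54 lower point estimates, with a median log2 fold change of 0.0091. Both PAGln libraries lay above both controls for 12 of the 114 and below for 7, where 11.5% and 11.6% of all tested genes did so. In what follows no gene passed, so values and not changes are given.

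Upstream of PI3K, 6 of 10 tested receptors and adaptors had higher and 4 lower point estimates. The receptor Pdgfrb, the most abundant of them, averaged 91.7 ± 1.47 FPKM with PAGln and 92.5 ± 1.995 FPKM in control (SD, n = 2 each). Shc1, an adaptor that links receptors to RAS, had 65.9 and 70.2 FPKM with PAGln, against 75.9 and 73.2 FPKM in control, a log2 fold change of -0.13 (SE 0.099). Grb10, an adaptor that restrains insulin and IGF1 receptor signalling, had 39.3 and 48.4 FPKM with PAGln, against 43.5 and 38.7 FPKM in control.

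Of the PI3K subunits 7 of 10 had higher and 3 lower point estimates. Pik3r1, the gene of the regulatory subunit p85 alpha, had 10.4 and 12.8 FPKM with PAGln, against 10.4 and 9.43 FPKM in control. Pik3r2, that of p85 beta, was the most abundant and averaged 42.1 ± 0.544 FPKM with PAGln and 43.3 ± 6.14 FPKM in control. Pik3cb, of the catalytic subunit p110 beta, had 4.28 and 4.32 FPKM with PAGln, against 4.22 and 3.65 FPKM in control, with both PAGln libraries above.

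Of the phosphatases that oppose the pathway, 2 of 7 had higher and 5 lower point estimates. Ppp2ca, a catalytic subunit of protein phosphatase 2A, had 33.8 and 26.7 FPKM with PAGln, against 54.6 and 29.2 FPKM in control, where control 1 alone stood high. Ppp2r1a, the scaffold subunit, averaged 149 ± 9.32 FPKM with PAGln and 149 ± 7.60 FPKM in control.

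Beside the AKT genes, Pdpk1, whose product PDK1 phosphorylates AKT, averaged 15.2 ± 2.49 FPKM with PAGln and 15.2 ± 3.38 FPKM in control. The list of AKT, PDK1 and related kinases had 3 of 6 higher and 3 lower. In the TSC and RHEB list 4 of 5 were higher and 1 lower. Tbc1d7, the third TSC subunit, had 9.56 and 11.3 FPKM with PAGln, against 9.73 and 8.78 FPKM in control. Rheb had 78.5 and 87.4 FPKM with PAGln, against 82.4 and 96.6 FPKM in control, and was the most abundant of this list.

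**Figure D5:**
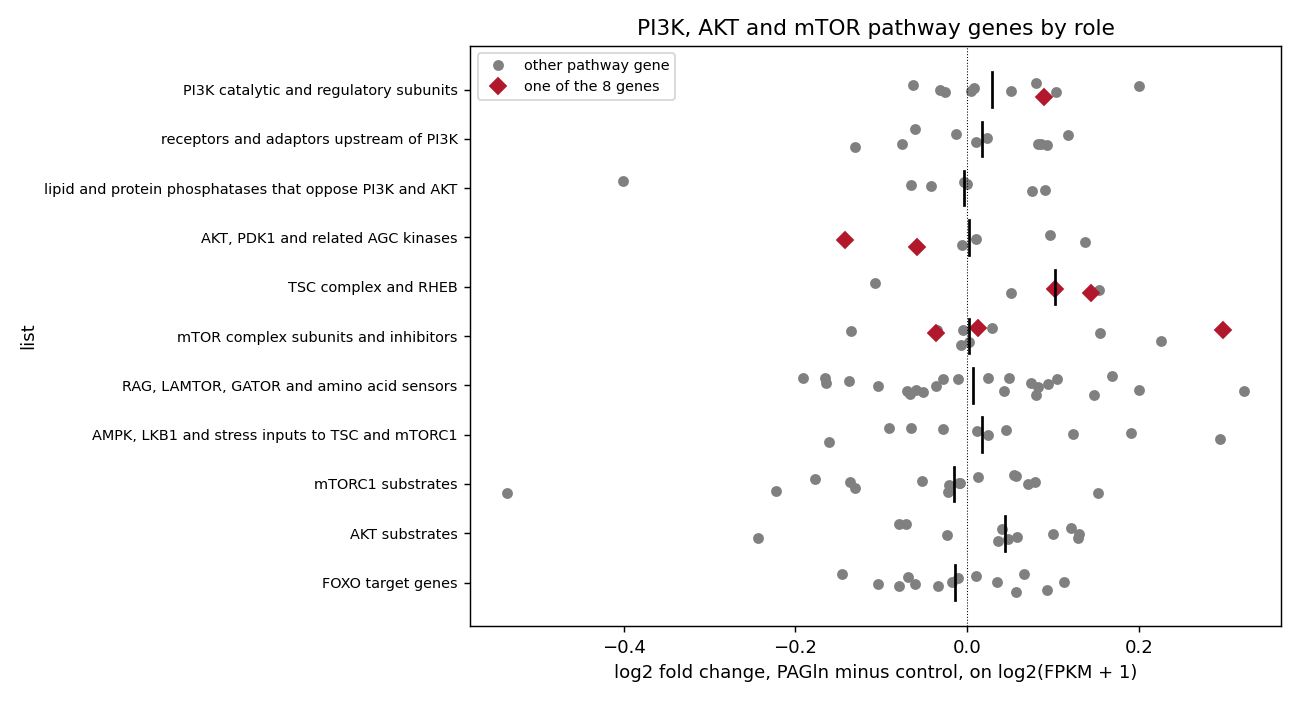
log2 fold change, PAGln minus control on log2(FPKM + 1), of each tested pathway gene in 11 lists by role; red diamonds are the 8 genes, grey points the others and black bars each list's median. Points lie on both sides of 0 in every list, and the list medians run from -0.015 to 0.10.

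Among subunits and inhibitors of the mTOR complexes 6 of 11 were higher and 5 lower. Mapkap1, which encodes the mTORC2 subunit SIN1, had 13.3 and 14.1 FPKM with PAGln, against 11.4 and 13.0 FPKM in control, and so did not overlap. Akt1s1, of the mTORC1 inhibitor PRAS40, had 41.9 and 33.2 FPKM with PAGln, against 37.2 and 45.3 FPKM in control. Prr5 was listed at 0 in all 4 libraries.

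Of the lysosomal amino acid branch 12 of 24 were higher and 12 lower. Rragd, one of the RAG GTPases that bring mTORC1 to the lysosome, had 12.7 and 9.89 FPKM with PAGln, against 9.07 and 8.50 FPKM in control. Its log2 fold change of 0.32 (SE 0.16, 95% confidence interval -0.079 to 0.72) had the smallest unadjusted p of the pathway, 0.0943 in limma. Sec13, shared by GATOR2 and the secretory coat, had 66.0 and 71.0 FPKM with PAGln, against 71.0 and 83.1 FPKM in control. Lamtor1, which anchors the Ragulator complex, averaged 106 ± 1.28 FPKM with PAGln and 111 ± 9.86 FPKM in control.

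AMPK and stress inputs had 6 of 10 higher and 4 lower. Prkaa1 and Prkaa2 encode the catalytic subunits of AMPK, which restrains mTORC1 when energy is low. Prkaa1 had 13.1 and 15.8 FPKM with PAGln, against 13.7 and 11.3 FPKM in control. Prkaa2 had 8.26 and 10.7 FPKM with PAGln, against 9.54 and 5.85 FPKM in control. Control 2 was the lowest library for both, as it was for Rictor and also for Pik3ca, Tsc1, Tsc2, Pik3r1, Tbc1d7 and other genes. Ddit4, a stress-induced activator of TSC, averaged 61.6 ± 2.39 FPKM with PAGln and 63.0 ± 8.67 FPKM in control.

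Of the list of mTORC1 substrates 6 of 16 were higher and 10 lower. That list also holds targets of kinases that mTORC1 activates, such as Rps6. Eif4ebp1, the gene of the translation inhibitor 4E-BP1, had 110 and 90.5 FPKM with PAGln, against 99.1 and 137 FPKM in control. Tfe3, a lysosomal transcription factor, had 20.6 and 19.6 FPKM with PAGln, against 22.9 and 22.8 FPKM in control, a log2 fold change of -0.18 (SE 0.10) with both PAGln libraries below. Rps6, ribosomal protein S6, had 17.8 and 31.4 FPKM with PAGln, against 30.9 and 39.0 FPKM in control. Ribosomal protein genes have near-identical copies, so the level of Rps6 is uncertain.

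Of the AKT substrates 8 of 12 were higher and 4 lower, and of the FOXO target genes, which AKT keeps low by inhibiting FOXO factors, 6 of 14 were higher and 8 lower. Bad, a pro-apoptotic BCL2 family member, had 51.4 and 38.4 FPKM with PAGln, against 46.5 and 59.8 FPKM in control. Mdm2, the ubiquitin ligase of p53, had 92.6 and 88.9 FPKM with PAGln, against 84.9 and 84.3 FPKM in control, and Tbc1d1 had 24.5 and 24.2 FPKM with PAGln, against 23.4 and 21.3 FPKM in control. Neither overlapped between groups, nor did Shc1, Pik3cb, Mapkap1, Mlst8, Rragd, Sec13, Tfe3, Bcl6 and Sesn1 among the other genes named from the lists. Of all tested genes 23.1% did not overlap. Of the FOXO targets, Pik3ip1, an inhibitor of PI3K, averaged 85.3 ± 2.69 FPKM with PAGln and 88.0 ± 14.9 FPKM in control. Bcl6 had 9.97 and 10.6 FPKM with PAGln, against 9.89 and 9.25 FPKM in control, and Sesn1 had 4.85 and 4.48 FPKM with PAGln, against 5.31 and 4.86 FPKM in control.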

How the data were processed

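RNA of 4 H9C2 libraries, 2 with PAGln and 2 controls, was sequenced from TruSeq libraries, per the labels' protocols. The authors deposited 1 table of FPKM per library. The submitters' processing notes list Bowtie 0.12.2 and hg38. That build is human, and the tables hold rat genes. Which build the coordinates refer to, how reads were counted, and how strand and multi-mapping reads were handled is not given in the sources used here. Per the file headers each table has a gene length, and deposited FPKM times length was a whole multiple of 1 step per library for 100% of non-zero values (within 0.01 of a read), which gave the recovered reads, taking the smallest step as 1 read. Counting errors are the square root of the reads and cover no other error. In each group the libraries lay farther apart than sampling noise allows (a mean chi-square per gene of 17.01 for PAGln and 18.9 for control). Each counted as 1 replicate, though this spread does not show that the libraries were separate cultures.

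The test was limma (version 3.58.1, under R 4.3.3) on log2(FPKM + 1) of 12334 genes with a mean of at least 1 FPKM. It used eBayes with a trend and no covariates, was two-sided, and had a threshold of 0.05 on Benjamini-Hochberg adjusted p-values. A check on simulated data with independent noise asked whether known fold changes were recovered. Those data held no pattern shared by libraries or tied to gene length, so the check does not cover such patterns. Genes and lists were chosen with earlier results of these data known. All 8 genes were named whatever their test, and of each list the 2 genes with the smallest p and the most abundant gene; Pdpk1, Pik3cd, Pik3cg, Prr5, the marker genes and the nearest-profile genes were added for context, some after their values were seen. Some genes that this rule names are not reported here. Alternatives were other pseudocounts, filters and scalings, voom on the recovered reads, a replicate block and leaving out each library.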

Additional observations from a re-analysis of the deposited data

How the results depend on the processing

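None of the 8 genes and none of the 122 pathway genes passed under any of the 15 alternatives to the limma fit. With all 4 libraries the sign of each of the 8 log2 fold changes was kept under the 11 alternatives that leave no library out. Leaving out 1 library moved the log2 fold change of Pik3ca between -0.061 and 0.24, of Akt2 between -0.15 and 0.034, of Mtor between -0.20 and 0.13 and of Rictor between -0.089 and 0.69, and the signs of Akt1, Tsc1, Tsc2 and Rptor were kept. The difference in log2 ratio ran from -0.044 to 0.21 for Akt2 over Akt1 and from -0.12 to 0.77 for Rictor over Rptor. Over all tested genes, 0 passed, and 1 to 13 did with 1 library left out. A group with 1 library left was taken to vary as much as the other group. Same-numbered libraries are not known to be pairs, and their deviations correlated at -0.28 across genes; a replicate block gave 7 calls over all genes, none among the 8, and the crossed pairing, chosen after seeing the data, gave 0. At an unadjusted p under 0.05 the counts over all genes ran from 122 (mean of 5 FPKM or more) through 136 (voom) to 899 (crossed pairing), against 262. The intervals of the 8 genes are wide, with a median half-width of 0.35 on the log2 scale, and differences inside them were not detectable with 2 libraries per group.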
